A study of Rattus norvegicus with 12 samples.

Results

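The annexin genes of fibroblast-like synoviocytes (FLS) were followed in an RNA-seq series of 12 libraries. The members are Anxa1, Anxa2, Anxa3, Anxa4, Anxa5, Anxa6, Anxa7, Anxa8 and Anxa11, 9 of the 22442 gene records in the deposited expression table. They were chosen with earlier results of these data known. Records were matched by gene name, and each of the 9 names had a single record. Of these, 8 carry a locus name given by StringTie, Anxa1 being MSTRG.1990 and Anxa11 MSTRG.6736, and that of Anxa3 carries a rat Ensembl name. Each of the 8 holds at least 1 Ensembl transcript, and those of Anxa5 and Anxa11 hold 0 assembled ones. Anxa1 is among them because its small increase under taurochenodeoxycholic acid (TCDCA), a taurine-conjugated bile acid, was already known from these libraries, and the question asked here is whether the other annexins shared it. All 12 libraries were made from FLS of male SD rats with adjuvant arthritis (AA), a joint inflammation raised by injection of complete Freund's adjuvant, and the cells were used at the third passage. The FCA group was kept in DMEM without TCDCA. The AT10, AT1 and AT01 groups received TCDCA at 10, 1 and 0.1 µM (1e-05, 1e-06 and 1e-07 M), and the incubation lasted 12 h in all 4 groups of 3 libraries each. Every group, the control included, came from arthritic animals, and healthy FLS are not analysed here. The labels do not say whether the 3 libraries of a group came from separate cultures or animals, so the p-values measure only the spread between these libraries, which may be technical.

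Annexins are proteins that bind acidic membrane phospholipids when calcium rises. They share a folded core built from annexin repeats and differ in their amino-terminal tails, which carry the binding sites for partners such as the S100 proteins. Anxa1 is induced by glucocorticoids and acts as an anti-inflammatory mediator through formyl peptide receptors, and in synovium it has long been studied as part of the glucocorticoid response. Anxa2 with S100a10 forms a cell-surface complex that binds plasminogen, Anxa5 covers exposed phosphatidylserine, and several annexins take part in the repair of the plasma membrane.

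The promoter sequences of 3 members are shown: Anxa1 and Anxa11 had the lowest unadjusted p-values of the members over the 9 TCDCA libraries, with opposite signs and no call by the adjusted p, and the range of Anxa2 overlapped with that of Anxa1. Each is the stretch of 250 bases before the RefSeq start of the gene in assembly GRCr8, written 5′ to 3′ on the strand of the gene, with capitals on the TATA box (TATAAA), the GC box (GGGCGG) and the AP-1 site (TGANTCA) on either strand. The Anxa1 window lies at chr1:227303733-227303982 on the minus strand, that of Anxa2 at chr8:78986002-78986251 on the plus strand, and that of Anxa11 at chr16:1419484-1419733 on the plus strand.
Anxa1: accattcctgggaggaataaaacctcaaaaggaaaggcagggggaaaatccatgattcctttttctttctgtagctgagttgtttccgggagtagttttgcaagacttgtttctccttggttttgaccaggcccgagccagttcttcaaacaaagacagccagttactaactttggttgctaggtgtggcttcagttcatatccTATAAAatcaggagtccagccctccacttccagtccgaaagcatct
Anxa2: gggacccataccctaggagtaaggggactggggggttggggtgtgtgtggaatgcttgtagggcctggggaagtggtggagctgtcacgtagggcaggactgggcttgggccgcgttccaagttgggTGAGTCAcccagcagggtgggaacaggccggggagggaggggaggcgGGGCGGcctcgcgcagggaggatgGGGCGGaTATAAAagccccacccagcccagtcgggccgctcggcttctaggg
Anxa11: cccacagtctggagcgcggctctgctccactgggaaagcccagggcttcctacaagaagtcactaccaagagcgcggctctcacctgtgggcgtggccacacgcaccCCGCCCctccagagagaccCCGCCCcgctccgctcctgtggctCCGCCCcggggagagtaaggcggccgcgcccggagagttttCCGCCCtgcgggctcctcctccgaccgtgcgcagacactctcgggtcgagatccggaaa

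RefSeq promoters were found for 8 of the 9 members, without Anxa6. Anxa1 had a GC content of 45.2%, below the median of 51.2% over 33469 rat promoters of the same length, whereas Anxa2 had 67.2% and Anxa11 69.2%. The TATA box stood 46 bases before the start in Anxa1 and 45 bases before it in Anxa2, and in none of the other 6 matched members, against 12.9% of all promoters. GC boxes were found in 5 of the 8, against 30.5% of all promoters, with 4 in Anxa11, each read on the other strand as CCGCCC, and 2 in Anxa2. An AP-1 site was present only in Anxa2 of these 8, 123 bases before the start, against 6.34% of all promoters, and it reads as the motif on both strands. The CCAAT box (CCAAT) occurred in Anxa4 and Anxa7, against 34.0% of all promoters. Neither the half-site letters AGAACA of the glucocorticoid receptor nor the cAMP response half-site TGACG occurred on either strand in the 8 windows, against 17.5% and 18.2% of all promoters. These matches describe letters in a short window and do not show that a factor binds there.

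The levels of the annexins in FLS spanned a wide range. The deposited unit is FPKM, which scales the fragments of a gene by its length and by the size of the library and so lets genes be compared, and the number of reads behind a single value is unknown because the table used here holds no counts. Anxa2 had a mean level of 488 FPKM and Anxa1 482 FPKM over the 12 libraries, ranks 68 and 71 of the 22442 records, and Anxa5 followed with 278 FPKM at rank 156. Next stood Anxa11 with 33.9 FPKM, Anxa6 with 33.8 FPKM and Anxa4 with 32.3 FPKM, followed by Anxa7 with 22.7 FPKM. Anxa8 reached 1.90 FPKM and Anxa3 0.277 FPKM. Anxa9 did not exceed 0.12 FPKM in a library, and Anxa13 was listed at 0 in all 12. Among the 9 members, neighbours in this order were apart in every library except in 2 places. Anxa2 was above Anxa1 in 2 of 3 FCA libraries and in 5 of 9 TCDCA libraries, and the ranges of Anxa11, Anxa6 and Anxa4 overlapped. RefSeq lists 1 pseudogene of Anxa2 and 4 of Anxa7, so the levels of these 2 genes are uncertain to the extent that reads were shared.

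Together the 9 members summed to between 1289 and 1397 FPKM in the FCA libraries and between 1284 and 1437 FPKM in the TCDCA libraries, from 0.422% to 0.492% of the FPKM of a library. Anxa1, Anxa2 and Anxa5 held between 89.6% and 92.1% of this annexin sum. The highest value was between 1.195 and 1.64 times the lowest for the 8 members other than Anxa3, and 2.83 times for Anxa3. Of all records averaging 1 FPKM or more, 2.66% had a smaller SD of log2(FPKM + 1) than Anxa7, the least variable of these 8. For Anxa1 this was 30.2%, and for Anxa11, the most variable of the 8, it was 42.7%. No member had 2 separate levels among the libraries.

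**Figure D1:**
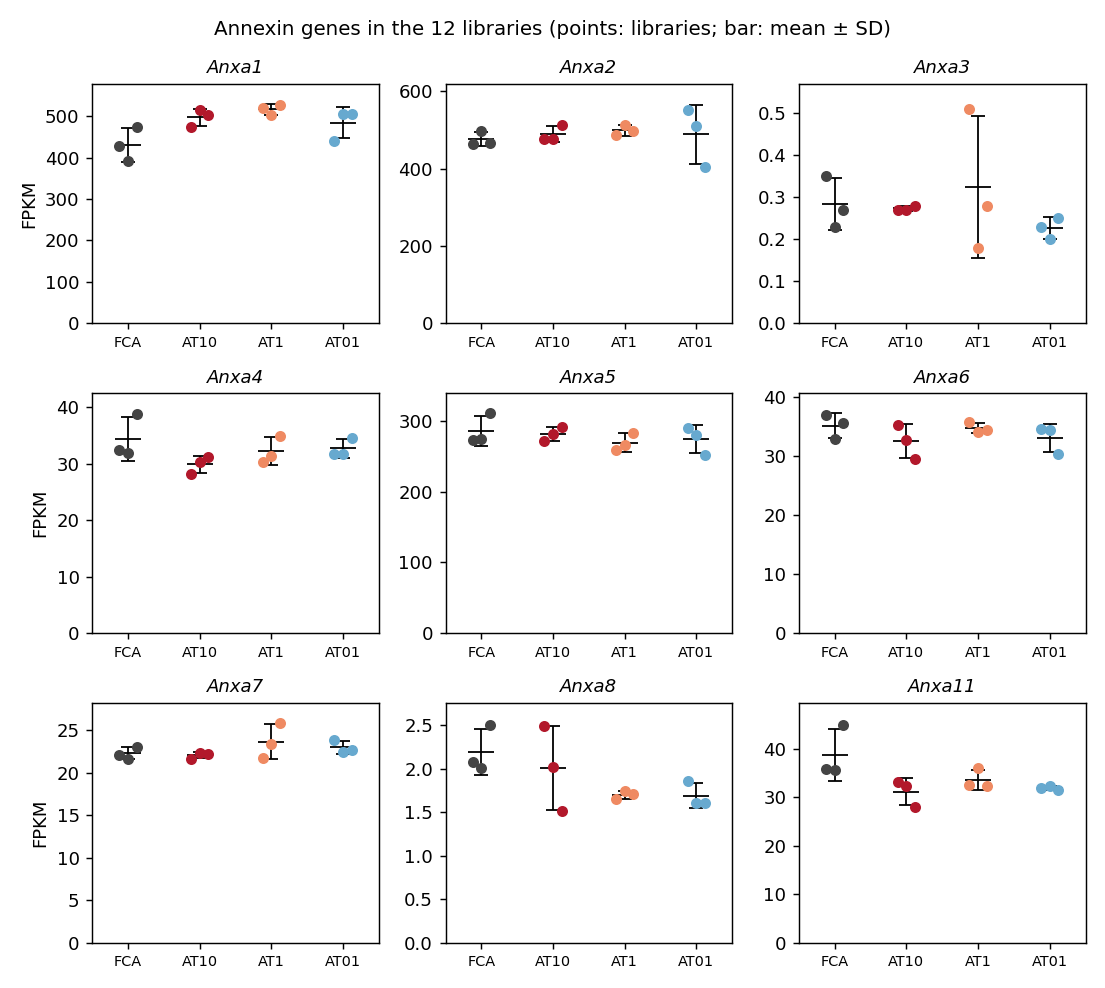
FPKM of the 9 annexin genes in the FCA, AT10, AT1 and AT01 groups. Points are libraries (3 per group), and bars are the mean ± SD; each axis starts at 0. Anxa1 lies higher in 8 of 9 TCDCA libraries than in every FCA library, and Anxa11 lies lower in 8 of 9.

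Anxa1 was higher under TCDCA by a small step that did not depend detectably on the dose. It was at 428, 392 and 474 FPKM in the FCA libraries and at 475, 514 and 503 FPKM in AT10. The AT1 libraries held 519.85, 502 and 527 FPKM and the AT01 libraries 441, 504 and 507 FPKM. All 3 AT10 and all 3 AT1 libraries were above every FCA library, in AT10 by less than 1 FPKM at the closest, and AT01 replicate 1 lay within the FCA range. The group means were 431 ± 41.2 FPKM in FCA, 497 ± 20.2 in AT10, 516 ± 12.5 in AT1 and 484 ± 37.5 in AT01 (SD, n = 3). On the log2(FPKM + 1) scale, AT10 exceeded FCA by 0.21, AT1 by 0.26 and AT01 by 0.17, with limma adjusted p-values of 0.423, 0.428 and 0.792. The 9 TCDCA libraries together were 0.21 above FCA, with a SE of 0.065 and a 95% interval from 0.07 to 0.36, which is 15.9% on the linear scale. Its unadjusted limma p was 0.00697, the adjusted p over 11611 records was 0.311 and the two-sided exact permutation p was 0.00909. Values from 8 of 9 TCDCA libraries lay above every FCA library, which 3.87% of all tested records also did. Since Anxa1 was chosen with its increase known, these p-values do not add to what was known of it. FCA replicate 2, the lowest of the controls, weighed on the difference, and without that library it was 0.15 with an unadjusted limma p of 0.0618, and the difference in AT01 was 0.10. The difference in AT1, 0.26, was 0.14 with an adjusted p of 0.919 in the Ballgown-style F test. Its covariate is the sum of log2(FPKM + 1) over the tested records at or below the 75th percentile of a library.

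Anxa11, a member with a long amino-terminal tail that tethers RNA granules to lysosomes, differed from FCA in the other direction. It was at 35.8, 35.6 and 44.9 FPKM in the FCA libraries and at 33.2, 32.3 and 28.0 FPKM in AT10. The AT1 libraries held 32.5, 36.1 and 32.3 FPKM and the AT01 libraries 32.0, 32.3 and 31.6 FPKM. All AT10 and AT01 libraries were below every FCA library, and AT1 replicate 2 was within the FCA range. In log2(FPKM + 1), AT10 differed from FCA by -0.30, AT1 by -0.19 and AT01 by -0.26, with limma adjusted p-values of 0.411, 0.519 and 0.720. Over the 9 TCDCA libraries it was -0.25, with a SE of 0.080, a 95% interval from -0.43 to -0.08, an unadjusted limma p of 0.00805 and an adjusted p of 0.311. The two-sided exact permutation p was 0.0136, and 8 of 9 libraries were below every FCA library, which 5.51% of all tested records also were. FCA replicate 3 held the highest Anxa11 value of the series, and without that library the pooled difference was -0.15 with an unadjusted limma p of 0.0785, and those of AT10, AT1 and AT01 were -0.20, -0.09 and -0.16. In AT1 the Ballgown-style F test gave -0.46 with an adjusted p of 0.194.

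Anxa8, a member of low level here that is linked to endosomes, was at 2.08, 2.01 and 2.50 FPKM in FCA and at 2.49, 2.02 and 1.52 FPKM in AT10. It was at 1.65, 1.74 and 1.71 FPKM in AT1 and at 1.86, 1.61 and 1.61 FPKM in AT01. Both lower doses lay below every FCA library, while AT10 spread over the whole range of the series. The difference in log2(FPKM + 1) was -0.24 in AT1 and -0.25 in AT01, against -0.10 in AT10, with limma adjusted p-values of 0.435, 0.720 and 0.787. Over the 9 libraries it was -0.19 with an adjusted p of 0.456 and an exact permutation p of 0.0545, and without FCA replicate 3 it was -0.13. The folds of such a low record depend on the pseudocount of 1, and with a pseudocount of 0.1 they were -0.35 in AT1 and -0.35 in AT01. The Ballgown-style F test gave -0.39 in AT1 with an adjusted p of 0.505.

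Anxa4, which binds membranes and regulates ion conductance in epithelia, was at 32.5, 31.8 and 38.7 FPKM in FCA and at 28.2, 30.2 and 31.2 FPKM in AT10. It was at 30.3, 31.4 and 35.0 FPKM in AT1 and at 31.8, 31.7 and 34.6 FPKM in AT01. The AT10 libraries were below every FCA library and those of the other doses overlapped with FCA. Its log2(FPKM + 1) was 0.19 below FCA in AT10 (a difference of -0.19), with a limma adjusted p of 0.487, and the pooled difference was -0.11 with an adjusted p of 0.558. FCA replicate 3 was also the highest library of Anxa4, and without it these differences were -0.10 and -0.03.

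The remaining members, Anxa2, Anxa5, Anxa6 and Anxa7, overlapped with FCA at every dose. Anxa2 was at 464, 498 and 467 FPKM in FCA, at 478, 478 and 513.5 FPKM in AT10, at 486, 513 and 497 FPKM in AT1 and at 553, 511 and 404 FPKM in AT01. AT01 thus held both its highest and its lowest value of the 12. Anxa5 was at 273, 275 and 311 FPKM in FCA, at 272, 282 and 291 FPKM in AT10, at 259, 267 and 284 FPKM in AT1 and at 291, 281 and 253 FPKM in AT01. Both of its extremes among the treated libraries were below the highest FCA value. Anxa6, whose core is doubled within 1 chain and which links membranes to cholesterol handling, was at 37.0, 32.9 and 35.5 FPKM in FCA, at 35.3, 32.7 and 29.5 FPKM in AT10, at 35.7, 34.0 and 34.4 FPKM in AT1 and at 34.6, 34.3 and 30.3 FPKM in AT01. Anxa7, a partner of sorcin, was at 22.1, 21.6 and 23.0 FPKM in FCA, at 21.6, 22.4 and 22.3 FPKM in AT10, at 21.8, 23.3 and 25.9 FPKM in AT1 and at 23.8, 22.4 and 22.7 FPKM in AT01. For Anxa6, no TCDCA library was above the FCA range, and for Anxa7 none was below it. The pooled differences in log2(FPKM + 1) were 0.04 for Anxa2 (95% interval -0.12 to 0.21), -0.06 for Anxa5 (-0.18 to 0.07), -0.07 for Anxa6 (-0.22 to 0.07) and 0.04 for Anxa7 (-0.08 to 0.16). The point estimate of Anxa1, 0.21, lies beyond the upper end for Anxa5, Anxa6 and Anxa7 and at the upper end for Anxa2. Anxa1 was chosen for its increase, however, and its own interval overlaps those of Anxa2 and Anxa7. The lower end for Anxa1, 0.07, also meets the upper ends for Anxa5 and Anxa6, so it is not clear of them. The difference between the genes was not tested. Anxa3 was at 0.35, 0.23 and 0.27 FPKM in FCA and between 0.18 and 0.51 FPKM in the TCDCA libraries, and with a mean below 1 FPKM it was not tested.

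None of the 8 tested members passed an adjusted p under 0.05 in limma in any of the 4 comparisons with FCA, where the share of all records called was 0.172% in AT10, 0.0947% in AT1, 0.0947% in AT01 and 0.0258% over the 9 TCDCA libraries. A nested-model F test modelled on Ballgown, the package the study used, likewise called 0 of 8 in each. At an unadjusted p under 0.05 in limma, Anxa11 was lower in AT10, Anxa1 higher and Anxa8 lower in AT1, Anxa11 lower in AT01, and Anxa1 higher and Anxa11 lower over the 9 libraries. Of all tested records, 7.54% were higher and 4.34% lower by this rule in AT10, 5.56% and 5.44% in AT1, 2.57% and 4.03% in AT01, and 5.86% and 6.15% over the 9 libraries. Groups did not overlap for 1 higher and 2 lower members in AT10 (all records 10.7% and 9.18%), for 1 higher and 1 lower in AT1 (9.87% and 10.0%) and for 0 higher and 2 lower in AT01 (5.97% and 8.06%). Anxa1 was thus the only member higher than FCA at an unadjusted p under 0.05, and it was so in AT1 and over the 9 libraries. The sign was above 0 for Anxa1, Anxa2 and Anxa7 over the 9 libraries and below 0 for the other 5 tested members, where 50.7% of all tested records were above 0, with a median of -0.06 against 0.003 over all tested records. The medians in AT10, AT1 and AT01 were -0.06, -0.05 and -0.06. The 3 comparisons with single doses share the FCA libraries, so their likeness is not independent.

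**Figure D2:**
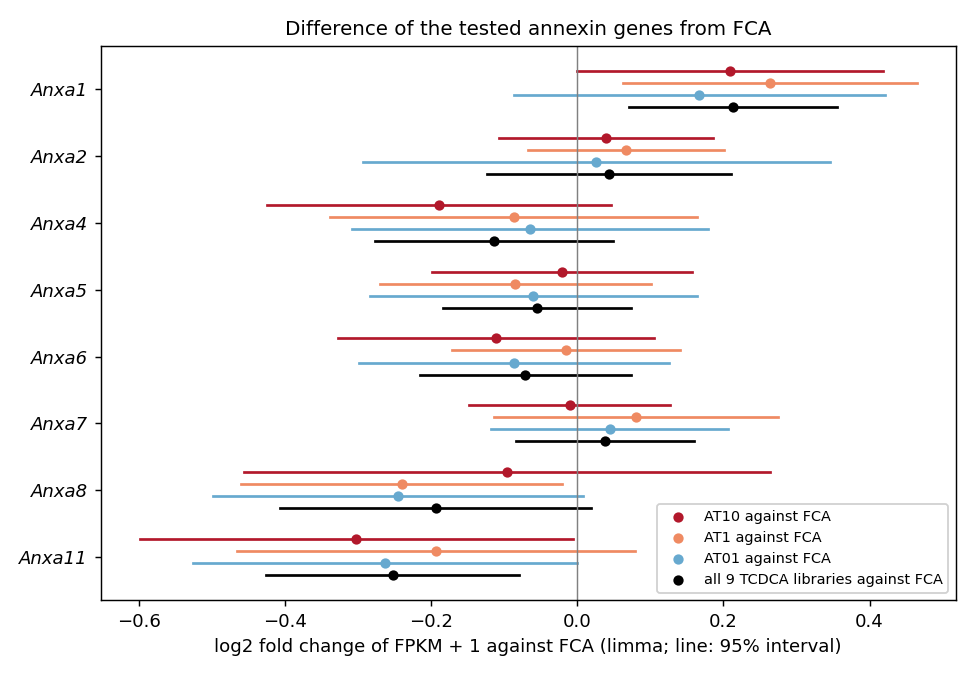
Difference of each tested annexin from FCA in log2(FPKM + 1), for AT10, AT1, AT01 and the 9 TCDCA libraries together. Points are limma estimates and lines 95% intervals. The interval over the 9 libraries lies above 0 for Anxa1 and below 0 for Anxa11, and it includes 0 for the other 6 members.

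The doses were also compared with each other. The limma test found 0 of 8 members at an adjusted p under 0.05 between AT10 and AT1, AT10 and AT01, or AT1 and AT01, and also 0 at an unadjusted p under 0.05, against 0.258%, 0.0689% and 0.129% of all records by the adjusted p and 6.46%, 4.97% and 3.43% by the unadjusted p. For Anxa1 the difference in log2(FPKM + 1) of AT10 from AT1 was -0.05 (95% interval -0.19 to 0.08), that of AT10 from AT01 was 0.04 (-0.17 to 0.26) and that of AT1 from AT01 was 0.10 (-0.10 to 0.30). For Anxa11 they were -0.11 (-0.33 to 0.11), -0.04 (-0.25 to 0.17) and 0.07 (-0.10 to 0.24). Anxa4 and Anxa7 were lower in all AT10 than in all AT01 libraries, as 6.47% of all tested records were, and Anxa11 was higher in all AT1 than in all AT01 libraries, as were 4.86%, each with an exact permutation p of 0.1, the smallest that 3 libraries against 3 can give.

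The ratio of Anxa1 to the other members was taken within each library. Because Anxa1 was chosen for its increase, these ratios are a description and were not tested. Anxa1 stood at between 10.6 and 11.9 times Anxa11 in FCA and at between 13.8 and 17.99 times in the TCDCA libraries. Its ratio to Anxa4 was between 12.2 and 13.2 in FCA and between 13.9 and 17.2 under TCDCA. These are the 2 ratios that were higher in 9 of 9 TCDCA libraries than in every FCA library, which the ratio of Anxa1 to 5.81% of all tested records also was. The ratio to Anxa5 was between 1.43 and 1.57 in FCA and between 1.52 and 2.01 under TCDCA. It was above every FCA library in 8 of 9, as were those to Anxa3, Anxa6 and Anxa8. The FPKM of Anxa1 itself was above every FCA library in 8 of 9, so these counts are not independent of it. Anxa3 averaged below 1 FPKM, and the ratio to it ranged from 1019 to 2792 under TCDCA, with 1 library below every FCA library. The ratio to Anxa7 was above in 7 of 9. The ratio to Anxa2 was above in only 4 of 9, with 0.787 to 1.01 in FCA and 0.797 to 1.26 under TCDCA. As a share of the annexin sum, Anxa1 took between 30.4% and 33.9% in FCA and between 31.3% and 39.5% under TCDCA. The shares of Anxa5 and Anxa11 were lower in 9 of 9 TCDCA libraries, at 18.6% to 20.6% against 21.1% to 22.3% and at 1.97% to 2.56% against 2.76% to 3.21%. Shares of the same sum are not independent, since a higher share of Anxa1 leaves less for the other members. No percentage over all records stands beside these counts, or beside the counts for ratios to members other than Anxa4 and Anxa11. The FPKM of Anxa5 itself overlapped with FCA at every dose.

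**Figure D3:**
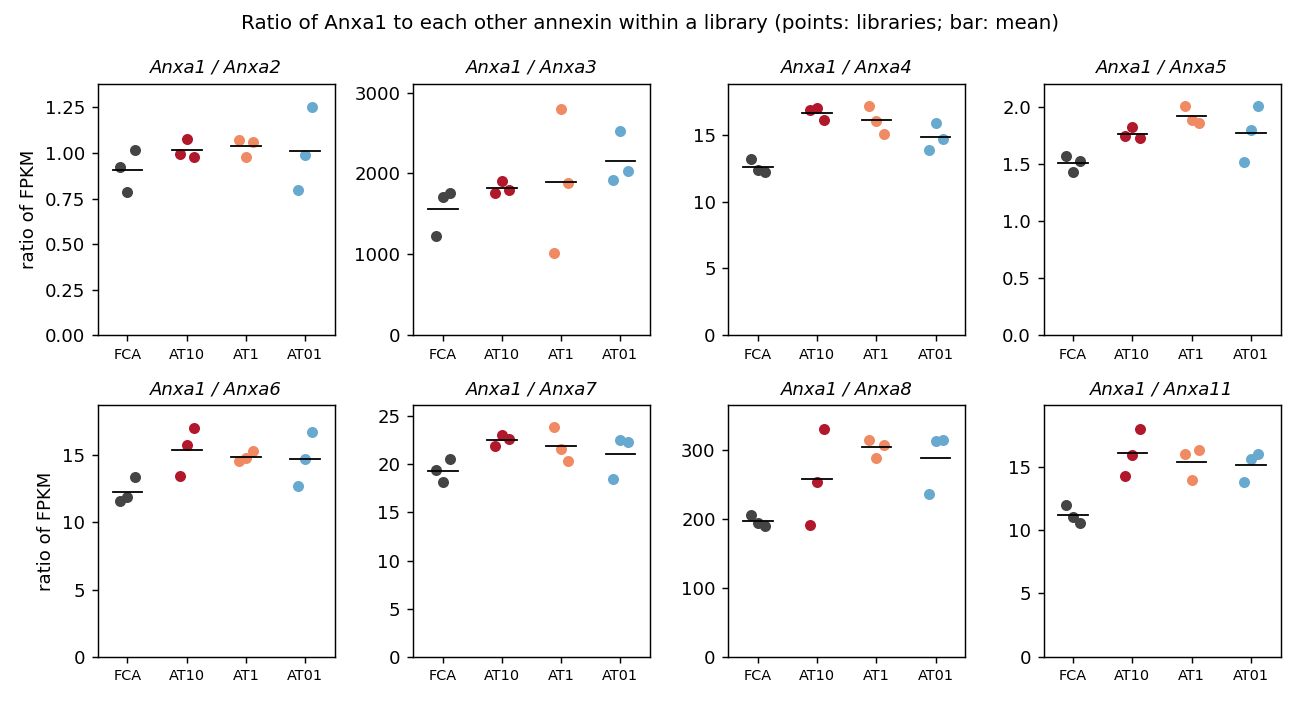
Ratio of the FPKM of Anxa1 to that of each other annexin within a library, by group, with each axis starting at 0. Points are libraries and bars group means. The 9 TCDCA libraries lie above the 3 FCA libraries for Anxa4 and Anxa11, and 4 of 9 do so for Anxa2.

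The likeness of the members to Anxa1 was read across the 12 libraries for the 6 with a mean above 10 FPKM, without Anxa3 and Anxa8. Pearson's r with Anxa1 in log2(FPKM + 1), given as a description over libraries that share groups and scaling, was 0.32 for Anxa7, 0.01 for Anxa4, -0.14 for Anxa5, -0.15 for Anxa2, -0.23 for Anxa6 and -0.33 for Anxa11. Of 4361 other named records averaging 10 FPKM or more, the 3 most like Anxa1 were Copb1, a coat protein subunit of Golgi vesicles, with an r of 0.96, Cyb5r4, a cytochrome b5 reductase, with 0.96, and Hspa9, the mitochondrial heat shock protein mortalin, with 0.95. Copb1 ranged from 42.9 to 59.0 FPKM, Cyb5r4 from 10.8 to 16.1 FPKM and Hspa9 from 77.8 to 109 FPKM.

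The partners of the annexins were read from a list of 24 genes, of which 20 had a record and 17 a mean of at least 1 FPKM. None of the 17 passed an adjusted p under 0.05 in limma in any comparison with FCA. At an unadjusted p under 0.05 there were 2 higher and 1 lower in AT10 (all tested records 7.54% and 4.34%), 2 higher and 1 lower in AT1 (5.56% and 5.44%), 0 in AT01 (2.57% and 4.03%), and 1 higher and 0 lower over the 9 libraries (5.86% and 6.15%). The median difference over the 17 was -0.005 in log2(FPKM + 1). Groups did not overlap for 2 higher and 1 lower of the 17 in AT10 (all tested records 10.7% and 9.18%). In AT1 this held for 2 higher and 2 lower (9.87% and 10.0%), and in AT01 for 0 and 0 (5.97% and 8.06%).

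Among the S100 proteins, which bind annexin tails, S100a10, the partner of Anxa2, was at 125 ± 4.69 FPKM in FCA (SD, n = 3) and 115 ± 15.0 FPKM in the TCDCA libraries (SD, n = 9), a log2 difference of -0.13 with a limma adjusted p of 0.665. S100a11, the partner of Anxa1, was at 816 ± 57.3 and 789 ± 64.5 FPKM, and S100a6, a partner of Anxa11, at 1044 ± 158 and 1124 ± 164 FPKM, with differences of -0.05 and 0.11. In AT1 alone, S100a11 was below every FCA library, as were 10.0% of all tested records, by -0.17 with a limma adjusted p of 0.451. S100b, an S100 protein of glia and cartilage, was between 12.7 and 32.9 FPKM in FCA, 43.4 to 58.9 FPKM in AT1 and 18.1 to 55.0 FPKM in the other doses. Its log2 difference was 1.42 in AT1 and 0.92 over the 9 libraries, with limma adjusted p-values of 0.420 and 0.420. No other partner with a limma unadjusted p under 0.05 in a comparison with FCA differed by more than 1 on this scale.

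Sri (sorcin), the calcium-binding partner of Anxa7, was at 2.54 ± 0.171 FPKM in FCA (SD, n = 3) and 2.53 ± 0.396 FPKM under TCDCA (SD, n = 9). Pdcd6, or ALG-2, which binds Anxa7 and Anxa11, was at 56.7 ± 3.60 and 59.9 ± 11.2 FPKM. In AT1 all 3 libraries were above FCA, as were 9.87% of all tested records, by 0.21 with a limma adjusted p of 0.428. Pla2g4a, the cytosolic phospholipase whose activity Anxa1 opposes, was at 13.8, 14.9 and 19.9 FPKM in FCA and between 16.9 and 28.1 FPKM under TCDCA, with a median of 19.5. The groups overlapped, and the pooled difference of 0.32 had an unadjusted limma p of 0.0453 and an adjusted p of 0.404. Src, the kinase that phosphorylates Anxa2, was at 17.7 to 20.8 FPKM in FCA and 8.08 to 19.5 FPKM under TCDCA, a difference of -0.33 with a limma adjusted p of 0.565. Ahnak, a scaffold of the Anxa2 complex with 2 records in the table, was at 1.12 ± 0.723 and 1.61 ± 0.656 FPKM in the record of higher mean. Of the formyl peptide receptors listed, Fpr1 and Fpr2 were near 0, at no more than 0.14 FPKM and 0.06 FPKM in a library. Fpr3, Fpr-rs3 and Fpr-rs4 had no record.

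Annexins are recruited to torn plasma membranes together with dysferlin, calpains and other proteins, and 17 of 21 such genes were tested. None passed an adjusted p under 0.05 in limma against FCA, and 0 were higher and 3 lower at an unadjusted p under 0.05 over the 9 TCDCA libraries, against 5.86% and 6.15% of all tested records. Dysf (dysferlin, a calcium sensor of repair) was at 17.5 ± 0.480 FPKM in FCA (SD, n = 3) and 15.3 ± 1.16 FPKM under TCDCA (SD, n = 9), with 8 of 9 libraries below FCA. Ehd2, a membrane-bending ATPase of caveolae, was at 71.8 ± 5.00 and 63.5 ± 3.99 FPKM, with 9 of 9 below, as in 1.9% of all tested records. Capn1, a calcium-activated protease, was at 10.8 ± 0.399 and 9.92 ± 0.498 FPKM, with 8 of 9 below, and 5.51% of all tested records had at least 8 of 9 below. The log2 differences were -0.19, -0.18 and -0.12, with limma adjusted p-values of 0.339, 0.361 and 0.410, and the median over the 17 genes was 0.009. The other 14 tested genes, Cav1, Myof and Capn2 among them, had unadjusted p-values above 0.05 over the 9 libraries.

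**Figure D4:**
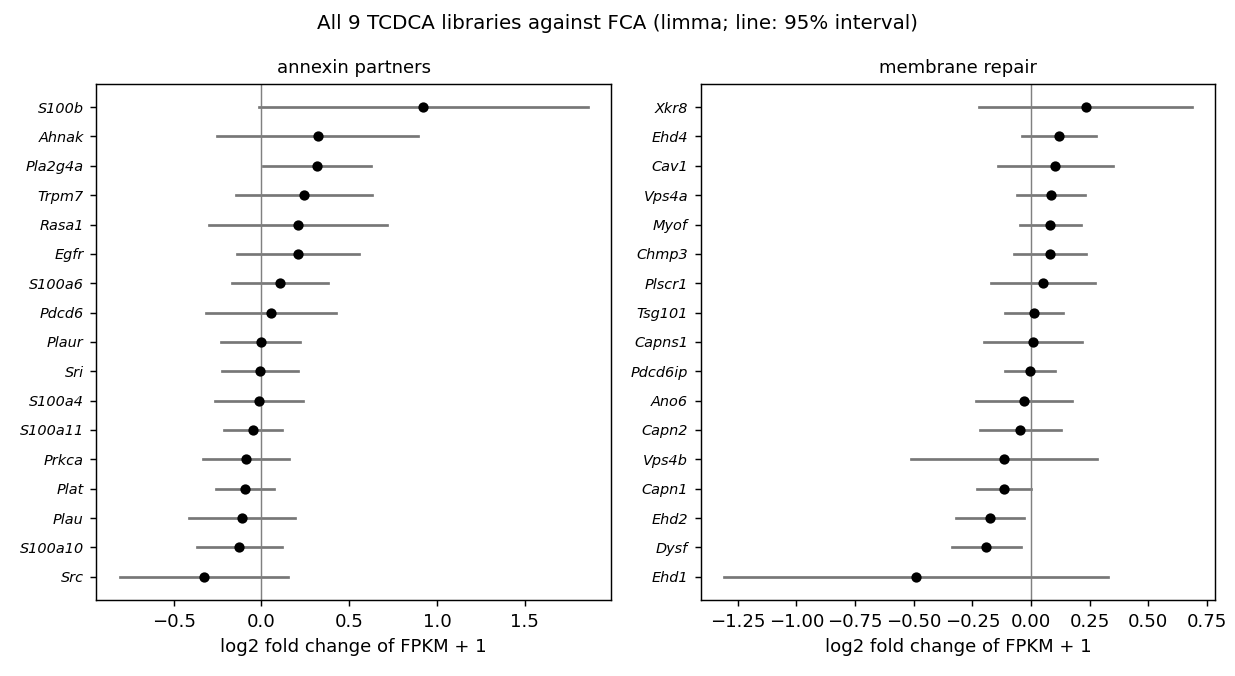
Difference of the tested annexin partners (left) and membrane repair genes (right) between the 9 TCDCA and the 3 FCA libraries in log2(FPKM + 1), ordered by size. Points are limma estimates and lines 95% intervals. Both lists lie around 0, with medians of -0.005 and 0.009, and S100b stands highest at 0.92.

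The cells carried the markers of synovial fibroblasts. The 8 of 10 listed markers with a record, Col1a1, Vim and Thy1 among them, summed to between 4730 and 5426 FPKM in FCA and between 3581 and 5027 FPKM in the TCDCA libraries. Over the 9 TCDCA libraries, 6 of these 8 were lower than FCA and 2 higher. Their median difference was -0.16 in log2(FPKM + 1), against 0.003 over all tested records. Thy1 was below every FCA library in 9 of 9 TCDCA libraries, as were 1.9% of all tested records. Fap was above every FCA library in 9 of 9, and 3.87% of all tested records had at least 8 of 9 above. Macrophage markers, 5 of 10 with a record, summed to between 1.92 and 3.39 FPKM, with Cd68 at 1.66 to 2.91 FPKM, Lyz2 at no more than 1.00 FPKM and Adgre1 at no more than 0.03 FPKM, and endothelial markers to no more than 0.21 FPKM, with Cdh5 at 0 in 11 of 12 libraries. Chondrocyte markers summed to between 8.01 and 10.1 FPKM in FCA and 4.73 and 8.54 FPKM under TCDCA, with Col2a1 near 0. All 3 tested ones were lower over the 9 libraries, with a median difference of -0.29 in log2(FPKM + 1). Among them, Acan was at 4.89 to 5.79 FPKM in FCA and 2.74 to 4.58 FPKM under TCDCA. Smooth muscle and myofibroblast markers, 5 of 6 with a record, summed to between 308 and 411 FPKM in FCA and between 159 and 304 FPKM under TCDCA, apart in 9 of 9 libraries. Acta2, the smooth muscle actin, carried this sum, at 263 to 370 FPKM in FCA and 125 to 255.5 FPKM under TCDCA, a log2 difference of -0.54 with a limma adjusted p of 0.347. It was below every FCA library in 9 of 9 TCDCA libraries, as were 1.9% of all tested records. The other 3 tested markers of this list, Des, Cnn1 and Myh11, had differences of 0.05, 0.02 and -0.02. The part of Acta2 in the annexin values was not tested, and in these bulk samples fewer cells of a type and less RNA per cell cannot be told apart. Pairs of libraries correlated at between 0.926 and 0.951 across tested records.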

How the data were processed

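Poly(A) RNA of 12 FLS libraries was sequenced, and per the labels and the study's methods the authors trimmed reads with cutadapt, aligned them with HISAT2 and estimated expression with StringTie and Ballgown. The deposited values are FPKM to 2 decimals for 22442 records, 1 column per library. The genome build is not given in the sources used here. edgeR is also named in the submitters' processing notes, without its role. Strand marking was used in library preparation per the labels, but whether the counting used it is not stated. The values come without counts, so the precision of a single value is unknown.

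The members and gene lists were chosen with earlier results of these data known. Values were transformed as log2(FPKM + 1), and 11611 records averaging 1 FPKM or more entered limma 3.58.1 (R 4.3.3; lmFit, then eBayes with a trend), fitted on the groups of a comparison only. A call was a p under 0.05 after Benjamini-Hochberg adjustment across these records. The 9 TCDCA libraries were also compared together with FCA. Two-sided exact permutation tests stand beside named genes, with a smallest p of 0.1 for 3 against 3 and 0.00455 for 9 against 3. All 9 members were named, as were the direct partners S100a10, S100a11, S100a6, Sri, Pdcd6, Ahnak, Pla2g4a, Fpr1 and Fpr2. In each list, the 3 tested genes of smallest p over the 9 libraries were named too. Values of other list genes, and of marker genes, were chosen for the text after they were seen. Likeness to Anxa1 was Pearson's r over the 12 libraries. A record was taken to have 2 levels where the widest gap of its sorted log2 values was at least 1 and wider than the range on either side. Motifs were searched as exact letters on both strands of RefSeq promoters. The limma step was tested on simulated data. Alternatives were another pseudocount (0.1), the absence of a filter, a stricter filter (10 FPKM), a joint fit of the 12 libraries, a Ballgown-style F test with a library covariate, scaling by median ratios, records of a name added up, the replicate number as a block and each library left out in turn. That covariate was the sum of log2(FPKM + 1) over the tested records at or below the 75th percentile of a library. Python 3.11.15, NumPy 2.4.6, pandas 2.3.3 and Matplotlib 3.10.9 were used.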

Additional observations from a re-analysis of the deposited data

Results flagged for a closer look

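Of the 9 members, 2 had a library far from the other 8 TCDCA libraries. Anxa2 was at 403.6 FPKM in AT01 replicate 3, against 478 FPKM in the next lowest, a gap of 0.497 of the whole range. Anxa3 was at 0.51 FPKM in AT1 replicate 1, against 0.28 FPKM in the next highest, a gap of 0.697 of the range, at a level where the record is near the lower limit of the table. The 95% critical value used by its construction marks about 1 in 20 such groups by chance.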

How the results depend on the processing

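All 21 counts of list members at an adjusted p under 0.05 stayed at 0 under their 312 alternative values. Over the 492 alternative values of 32 annexin fold changes, the lowest adjusted p was 0.159 and 14 values changed sign, all of differences under 0.10 on the log2 scale in the main analysis. Anxa2 turned to -0.011 in AT01 and to -0.0025 over the 9 TCDCA libraries under a Ballgown-style F test. The other changes of sign came from leaving out 1 library. The ranges were, in AT10, -0.053 to 0.040 for Anxa5, -0.030 to 0.013 for Anxa7 and -0.21 to 0.026 for Anxa8; in AT1, -0.060 to 0.021 for Anxa6 and -0.15 to 0.00061 for Anxa4; in AT01, -0.12 to 0.023 for Anxa4, -0.10 to 0.00093 for Anxa5 and -0.069 to 0.16 for Anxa2; and over the 9 libraries -0.087 to 0.0058 for Anxa5. In AT1 the Ballgown-style test moved Anxa4 from -0.09 to -0.24 and Anxa5 from -0.08 to -0.20, beside the values of Anxa1, Anxa8 and Anxa11 given above. Anxa1 over the 9 libraries ranged from 0.15 to 0.28 with 1 library left out and from 0.18 to 0.21 under the other alternatives. Anxa8 was not tested above the filter of 10 FPKM. Since counts are not used here, the counting error of the low records Anxa3 and Anxa8 is unknown, and 3 libraries a group limit every difference.

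The values gave no sign that replicate numbers pair the libraries, which does not show that they were unpaired. The paper describes the numbers as sets of repeated studies. None of the 18 correlations between deviations of same-numbered libraries was over 0.1, from -0.105 to 0.094, and 4 of 12 libraries correlated best with their own number. With the number as a replicate block, the pooled Anxa1 difference was 0.21 with a limma adjusted p of 0.290, and the counts of calls stayed at 0. At an unadjusted p under 0.05, the block left 0 of the single lower annexins in AT10, AT1 and AT01.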
